A study of Mus musculus with 8 samples.

Results

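The Hox genes of paralog groups 11, 12 and 13 are the 9 mouse genes Hoxa11, Hoxc11, Hoxd11, Hoxc12, Hoxd12, Hoxa13, Hoxb13, Hoxc13 and Hoxd13. They were taken by name from the 39 Hox genes among the 27179 genes of the deposited count table, and all 9 were found. The libraries came from whole spines of mouse embryos at E18.5, shortly before birth, in 4 groups of 2 libraries each. These were male Pax1-Enh knockout (KO), male wild type (WT), female KO and female WT. The study compared spines with and without a deleted regulatory region of Pax1, a transcription factor gene of the sclerotome that forms the vertebrae and discs. No strain, allele coordinates or number of embryos per library is stated, and nothing says that replicates came from separate litters, so p-values measure only the spread between these libraries.

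Hox genes lie in 4 clusters, named a to d, and each cluster is switched on along the body in the order of its genes, so that higher paralog numbers mark levels nearer the tail. Group 11 genes act at the sacrum and also in the forelimb zeugopod and the kidney. Group 13 genes act at the end of the axis, in the digits and in the urogenital and gut outlet. In mice Hoxb13 limits the growth of the tail, Hoxd13 and Hoxa13 pattern the digits, and Hoxc13 is needed for the hair shaft. Hox proteins of these groups bind DNA as homeodomain transcription factors and often oppose the action of Hox proteins of lower number.

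In the mm10 build (GRCm38), with gene spans from GENCODE release M21, the Hoxd members stand side by side on chromosome 2. Hoxd13 spans 74668310 to 74671599, Hoxd12 spans 74675013 to 74677705 and Hoxd11 spans 74679557 to 74687016, all on the plus strand. Pax1 is on the same chromosome, 72.7 Mb away (147361930 to 147375049). The Hoxa members lie on the minus strand of chromosome 6 (Hoxa11 at 52242106 to 52245810 and Hoxa13 at 52257694 to 52260880). Hoxb13 is on chromosome 11 at 96194316 to 96197447, and the Hoxc members are on chromosome 15 (Hoxc13 at 102921103 to 102928814, Hoxc12 at 102936757 to 102938609 and Hoxc11 at 102954427 to 102957708), all on the plus strand.

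The 250 bases before the start of the 3 Hoxd members are shown because these neighbours differed widely in level. They are RefSeq sequence of GRCm38.p6, plus strand, 5′ to 3′, and capitals mark TTTAT on either strand, the core motif bound by the caudal-type Cdx factors.
Hoxd13 (chr2:74667975-74668224): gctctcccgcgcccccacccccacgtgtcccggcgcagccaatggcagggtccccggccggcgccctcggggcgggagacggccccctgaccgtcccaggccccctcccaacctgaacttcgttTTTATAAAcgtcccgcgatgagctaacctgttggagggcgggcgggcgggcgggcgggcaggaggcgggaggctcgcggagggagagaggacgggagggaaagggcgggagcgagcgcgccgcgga
Hoxd12 (chr2:74674763-74675012): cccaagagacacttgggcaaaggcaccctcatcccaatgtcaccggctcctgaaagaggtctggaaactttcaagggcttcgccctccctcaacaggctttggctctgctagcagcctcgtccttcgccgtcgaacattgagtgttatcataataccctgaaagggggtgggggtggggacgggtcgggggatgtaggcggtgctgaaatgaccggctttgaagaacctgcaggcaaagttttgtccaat
Hoxd11, start of the coding transcript (chr2:74682073-74682322): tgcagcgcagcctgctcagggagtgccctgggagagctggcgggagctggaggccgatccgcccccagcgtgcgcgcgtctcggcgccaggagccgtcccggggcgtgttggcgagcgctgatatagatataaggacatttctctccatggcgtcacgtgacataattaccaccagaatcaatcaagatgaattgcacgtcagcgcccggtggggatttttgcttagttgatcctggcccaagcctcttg
The windows precede RefSeq starts, and that of Hoxd13, 74668225, lies 85 bases before its GENCODE start. The Hoxd13 window held 2 overlapping matches of TTTAT, 1 on each strand, starting 126 bases before the RefSeq start. The same letters hold TATAAA, the sequence of a TATA box, but this is a match of letters and its use was not tested. The Hoxd12 window and the coding Hoxd11 window held no TTTAT, and the window before the upstream Hoxd11 start (chr2:74679308-74679557) held 2. Of 32851 RefSeq windows of this length, 37.3% held TTTAT and 12.4% held TATAAA. The GC content was 74.4% for Hoxd13, 55.6% for Hoxd12 and 60.4% for Hoxd11, against a median of 52.4% over all windows.

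CPM are read counts scaled to the effective total of their library, and levels were compared between genes as CPM per kilobase (kb) of exon. Hoxc12 was the highest member, at 2.83 ± 1.25 in KO and 1.67 ± 0.958 in WT (SD, n = 4 libraries of both sexes). Hoxa11 followed at 1.80 ± 0.560 in KO and 1.09 ± 0.478 in WT, then Hoxc13 at 1.58 ± 0.633 in KO and 0.784 ± 0.572 in WT. The middle of the order was Hoxc11, with 0.974 ± 0.481 in KO and 0.628 ± 0.375 in WT, and Hoxd11, with 0.756 ± 0.297 in KO and 0.476 ± 0.0733 in WT. Hoxb13 averaged 0.260 ± 0.310 CPM per kb in KO and 0.138 ± 0.173 in WT, an SD above its mean in each genotype. Hoxd13 (0.105 ± 0.0594 in KO, 0.103 ± 0.134 in WT), Hoxd12 (0.0567 ± 0.0351 in KO, 0.0497 ± 0.0480 in WT) and Hoxa13 (0.0255 ± 0.0241 in KO, 0.0324 ± 0.0245 in WT) closed the order. Over both sexes KO and WT gave the same order, and neighbours in it had overlapping ranges, except Hoxd11 and Hoxb13 in WT. Single groups departed from that order. In male WT Hoxd11 (0.423) was above Hoxc13 (0.361) and Hoxc11 (0.334), and Hoxb13 was lowest at 0.0108 (1 and 1 counts). In female KO Hoxb13 (0.0145, 2 and 2 counts) was below Hoxd13 (0.0567) and Hoxd12 (0.0303, 7 and 2 counts). The order depends on the exon lengths used, which were 1031 bases for Hoxc12 and 2287 for Hoxa11. In CPM alone Hoxa11 was above Hoxc12, at 4.11 against 2.92 in KO and 2.50 against 1.72 in WT.

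In the Hoxa, Hoxc and Hoxd clusters, which have a group 10 gene, the level dropped between groups 10 and 11. In the Hoxd cluster Hoxd10 averaged 15.0 CPM per kb in KO and 9.84 in WT, and Hoxd11 was the next gene toward the tail end of the cluster. In the Hoxa cluster Hoxa10 averaged 7.27 in KO and 4.94 in WT, above Hoxa11 and far above Hoxa13. The Hoxc cluster did not step down evenly, since Hoxc12 and Hoxc13 were both above Hoxc11 in mean CPM per kb.

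**Figure D1:**
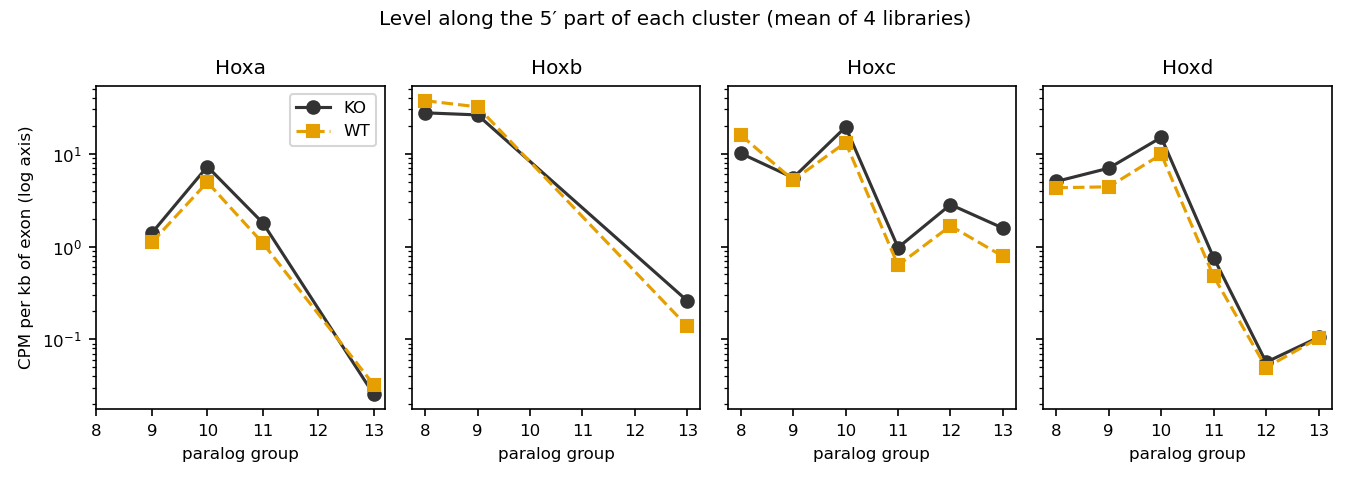
Mean CPM per kb of exon (log axis) of the Hox genes of groups 8 to 13 in each cluster, over 4 KO libraries (circles) and 4 WT libraries (squares); lines join neighbours of a cluster. Levels fall after group 10 in every cluster that has one, and Hoxc12 and Hoxc13 stay above Hoxc11.

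Library totals ran from 59722279 to 67575728 counts in KO and from 35181518 to 48021848 in WT, so depth and genotype cannot be told apart. A count of 3 was worth 0.0392 to 0.0831 CPM, and levels of 1 gene at or below that are given with their raw counts. Mitochondrial genes took 4.56% and 15.6% of the counts in male KO and 18.3% and 20.9% in male WT, which do not overlap, and 13.6% and 4.66% in female KO and 5.55% and 7.27% in female WT. With these genes left out of the libraries, none of the members' log2 fold changes reversed or crossed the threshold. Leaving them out changes only the scaling, and what the share itself marks in the tissue or RNA was not tested. Cartilage and bone genes of the spine list were all 12 detected in every group, and Noto, a notochord gene, was at 0 in every library. Pax1 had 28.3 and 18.9 CPM in male KO and 20.4 and 17.0 in male WT, and 30.4 and 19.9 in female KO and 27.0 and 18.6 in female WT, so its count does not separate the genotypes. In bulk tissue, fewer cells of a type and less RNA per cell cannot be told apart.

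In males every tested member was higher in KO than in WT, with no overlap between the groups. The members together made 5.62% and 4.38% of all Hox counts in the male KO libraries and 0.675% and 1.15% in the male WT libraries. Their summed level was 23.6 and 17.3 CPM in male KO and 4.24 and 8.19 CPM in male WT. Hoxa13 had too few counts for the model, which leaves 8 members tested among 18104 genes. With edgeR's quasi-likelihood test none of the 8 passed an adjusted p of 0.05, as for all genes (0%). At an unadjusted p under 0.05, 6 of 8 were higher in male KO, where 7.53% of all genes were. All 8 were free of overlap and higher, where 19.7% of all genes were. The DESeq2 test called 2 of 8 higher, Hoxb13 and Hoxc11, where it called 1.84% of all genes higher.

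The 3 group 11 genes, which act together at the sacrum, were all higher in male KO. Hoxa11 had 4.82 and 4.09 CPM in male KO and 1.18 and 2.26 CPM in male WT, a log2 fold change of 1.37 (SE 0.47, edgeR adjusted p = 0.278). Hoxc11 had 3.18 and 1.75 CPM in male KO and 0.567 and 0.784 CPM in male WT, a log2 fold change of 1.86 (SE 0.55, edgeR adjusted p = 0.254, DESeq2 adjusted p = 0.0392). Hoxd11 had 3.49 and 2.71 CPM in male KO and 1.97 and 1.59 CPM in male WT, a log2 fold change of 0.80 (SE 0.46, edgeR adjusted p = 0.419). Hoxd11 thus differed least of the members. Its exons share 455 of 4212 bases with the same-strand transcript Gm28309, and how reads in both were counted is not stated.

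The group 12 genes were also higher in male KO. Hoxc12 had 4.84 and 2.06 CPM in male KO and 0.444 and 1.52 CPM in male WT, a log2 fold change of 1.81 (SE 0.59, edgeR adjusted p = 0.270). Hoxd12, a gene of digit patterning, had 18 and 10 counts in male KO and 2 and 1 counts in male WT. Its log2 fold change was 2.49 (SE 0.90, edgeR adjusted p = 0.289), and its CPM ratio was 6.01 (95% counting interval 1.86 to 30.9). Counting intervals here and below leave out the spread between libraries and are no test of genotype. In CPM per kb Hoxc12 and Hoxd12 differed from each other by more than either differed between the male groups. The log2 fold change of Hoxc12 was 1.06 without male KO replicate 1, 1.19 without male WT replicate 1 and 2.96 without male WT replicate 2, so its size rests on single libraries of either genotype.

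Group 13 held the widest male differences. Hoxb13 had 111 and 42 counts (1.45 and 0.780 CPM) in male KO and 1 and 1 counts in male WT. Its CPM was 49.2 times as high (95% counting interval 13.4 to 410.0), and its log2 fold change was 5.42 (SE 0.80, edgeR adjusted p = 0.179, DESeq2 adjusted p = 0.00167). Both male KO libraries were above every other library except female WT replicate 2, which exceeded the lower of them. Hoxc13 had 394 and 281 counts (5.15 and 5.22 CPM) in male KO and 0 and 77 counts (0 and 1.78 CPM) in male WT, a log2 fold change of 2.53 (SE 1.08, edgeR adjusted p = 0.328). Hoxd13 had 27 and 22 counts in male KO and 0 and 6 counts in male WT, a log2 fold change of 2.39 (SE 1.11, edgeR adjusted p = 0.351). Hoxa13 had 10 and 5 counts in male KO and 0 and 3 counts in male WT. Its CPM ratio was 3.22 (95% counting interval 0.910 to 17.3, which includes equality, for counting error only).

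Male WT replicate 1 carried much of the group 13 difference. Its summed group 13 level was 0.0247 CPM, from 1 count of Hoxb13, against 2.01 CPM in male WT replicate 2, and it had no count for Hoxa13, Hoxc13 or Hoxd13 in 48021848. Without it the log2 fold change was 1.55 for Hoxc13 and 1.44 for Hoxd13. With it as the lone male WT library the fitted values were 11.13 and 7.37, which depend on the prior count and are no bounds. Hoxb13 moved little, from 4.89 to 5.80 over the libraries left out in turn.

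**Figure D2:**
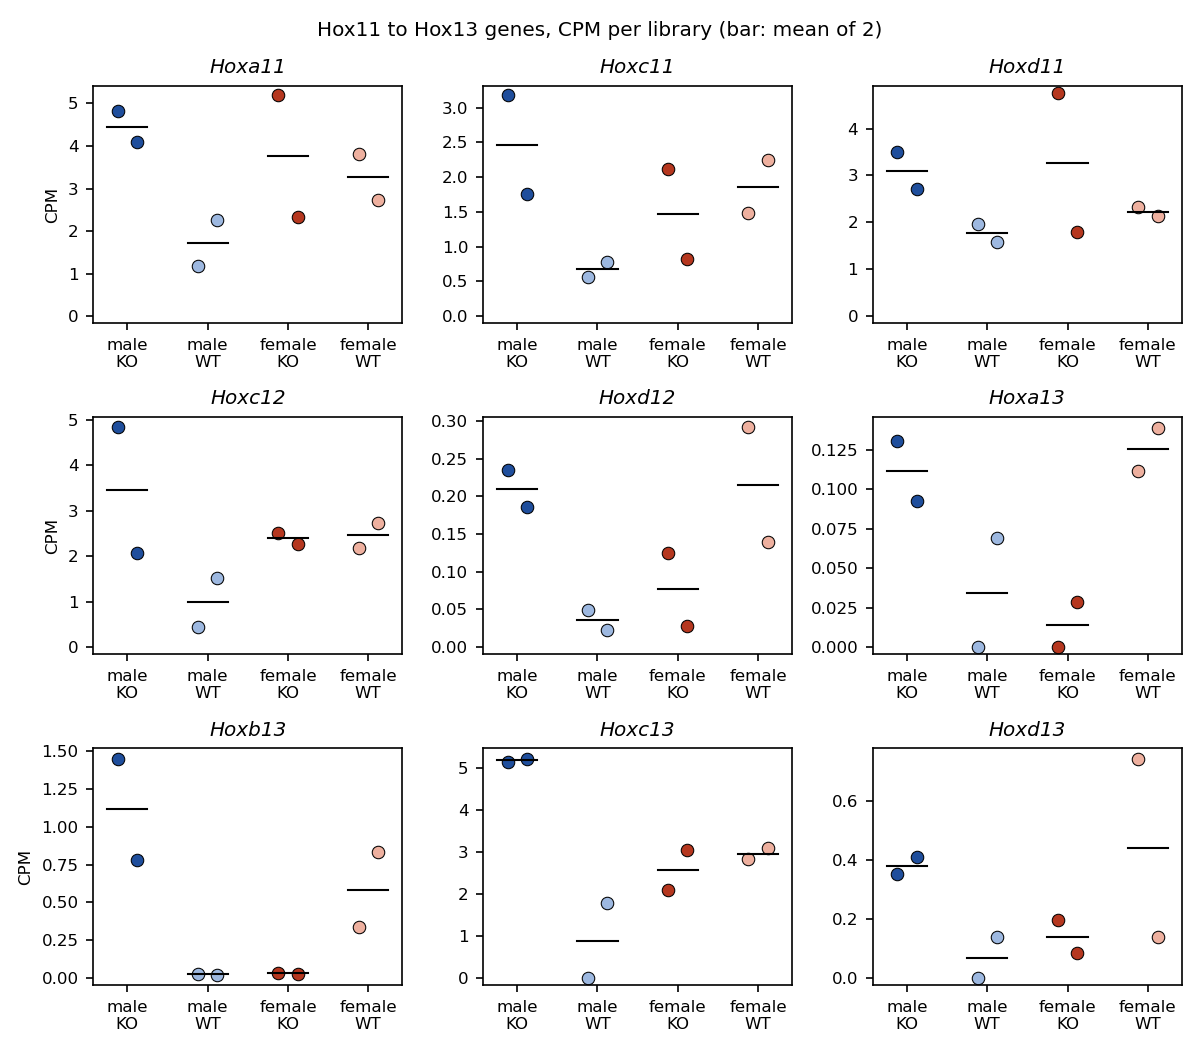
CPM of each of the 9 genes in every library, by group (points: libraries; bars: means of 2). The 2 male KO points lie above both male WT points in every panel, and Hoxb13 is near 0 in male WT and in female KO.

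In females the members had no common direction. Their share of Hox counts was 3.01% and 1.96% in female KO and 2.93% and 3.47% in female WT, and their summed level was 17.0 and 10.4 CPM in female KO and 14.1 and 14.2 CPM in female WT. With edgeR 0 of 8 tested members passed an adjusted p of 0.05 (0% of all genes). At an unadjusted p under 0.05, 1 of 8, Hoxb13, was lower in female KO, where 4.74% of all genes were. DESeq2 called that gene lower, where it called 0.663% of all genes lower, and gave Hoxd12 no adjusted p, here and in both sex comparisons. Groups did not overlap for 2 of 8, Hoxb13 and Hoxd12, both lower in female KO, where 26.2% of all genes were lower without overlap.

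Hoxb13 had 2 and 2 counts in female KO and 15 and 30 counts (0.337 and 0.831 CPM) in female WT. Its CPM in female WT was 17.6 times that in female KO (95% counting interval 6.43 to 67.5), and its log2 fold change was -4.09 (SE 0.74, edgeR adjusted p = 0.532, DESeq2 adjusted p = 0.0128). Hoxd12 had 7 and 2 counts in female KO and 13 and 5 counts in female WT, a log2 fold change of -1.54 (SE 0.78, edgeR adjusted p = 0.548). Hoxd13 had 11 and 6 counts in female KO and 33 and 5 counts in female WT, a log2 fold change of -1.68 (SE 0.98, edgeR adjusted p = 0.564) that was -0.01 without female WT replicate 1. Hoxa13 had 0 and 2 counts in female KO and 5 and 5 counts in female WT. The ratio of female WT over female KO was 7.84 (95% counting interval 1.67 to 73.6, for counting error only). Over both sexes Hoxa13 averaged 0.0630 CPM in KO and 0.0801 CPM in WT, and a two-sided exact permutation test of that difference gave p = 0.743 over 70 assignments, where the smallest possible is 0.0286.

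The other members of higher level overlapped between the female groups. Hoxc13 had 2.09 and 3.06 CPM in female KO and 2.83 and 3.10 CPM in female WT, and Hoxc12 had 2.52 and 2.26 CPM in female KO and 2.18 and 2.74 CPM in female WT. Group 11 split within female KO rather than between genotypes. Hoxa11 had 5.21 and 2.32 CPM in female KO and 3.82 and 2.72 CPM in female WT, Hoxc11 had 2.12 and 0.826 CPM in female KO and 1.48 and 2.24 CPM in female WT, and Hoxd11 had 4.75 and 1.79 CPM in female KO and 2.32 and 2.13 CPM in female WT. Female KO replicate 1 was the highest of all 8 libraries for Hoxa11 and Hoxd11, and female KO replicate 2 was below both female WT libraries for all 3 group 11 genes. The log2 fold changes were 0.20 (SE 0.46) for Hoxa11, -0.34 (SE 0.53) for Hoxc11, 0.55 (SE 0.45) for Hoxd11, -0.04 (SE 0.57) for Hoxc12 and -0.20 (SE 1.00) for Hoxc13, and each of these changed sign when 1 female library was left out.

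**Figure D3:**
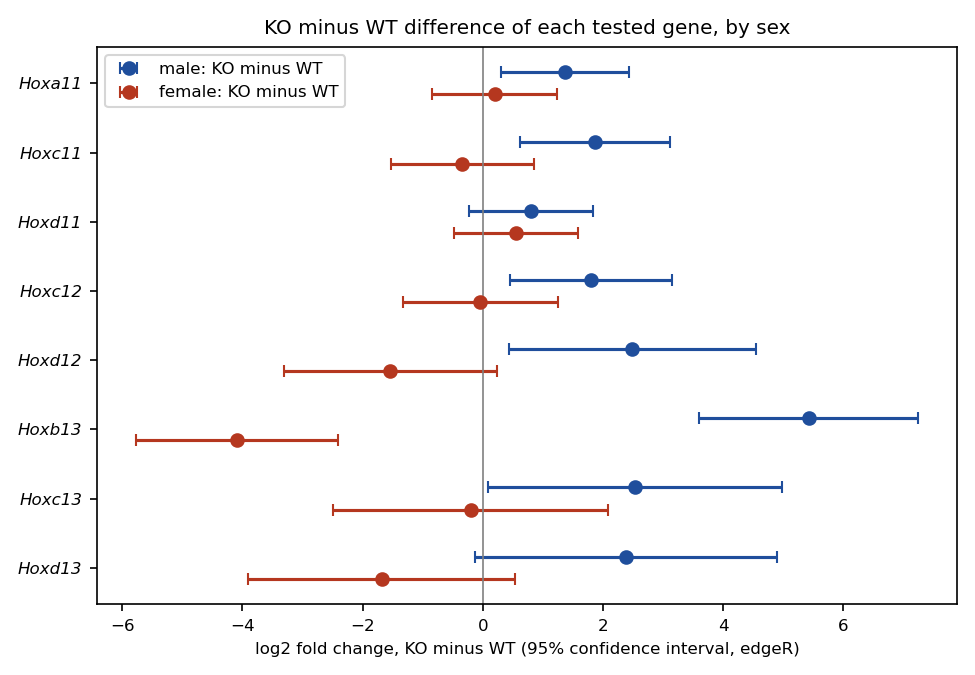
Log2 fold change, KO minus WT, of the 8 tested genes in males and in females (points: edgeR estimates; bars: 95% confidence intervals). All male estimates lie above 0, from 0.80 for Hoxd11 to 5.42 for Hoxb13, and the female ones run from -4.09 to 0.55.

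The difference between the sexes was tested as the female KO effect minus the male KO effect. All 8 estimates were negative. Hoxb13 had a difference of -9.51 (SE 1.09, 95% interval -11.99 to -7.03, edgeR adjusted p = 0.243, DESeq2 adjusted p = 2.1e-05). It was -4.07 (SE 1.48, edgeR adjusted p = 0.267) for Hoxd13 and -4.03 (SE 1.20, edgeR adjusted p = 0.247) for Hoxd12, which have opposite signs in the sexes. Hoxc13 (-2.74), Hoxc11 (-2.20), Hoxc12 (-1.85) and Hoxa11 (-1.17) followed, and Hoxd11 differed least (-0.25, SE 0.64). With edgeR 0 of 8 passed an adjusted p of 0.05 (0% of all genes), 4 of 8 were lower at an unadjusted p under 0.05 (7.13% of all genes), and DESeq2 called 1 of 8, Hoxb13, lower (0.906% of all genes).

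Averaged over the sexes, with sex as a term, the members' log2 fold changes ran from 0.15 for Hoxd13 to 1.13 for Hoxc13. All were positive, with edgeR adjusted p from 0.744 to 0.996. For 6 of the 8 the female estimate was negative, so the average is over opposite signs. Hoxb13 (0.42, SE 1.84), Hoxd12 (0.23, SE 0.85) and Hoxd13 (0.15, SE 1.00) changed sign when some single libraries were left out. None of 8 passed an adjusted p of 0.05 (0% of all genes) and none an unadjusted p under 0.05 in the higher direction (2.84% of all genes). DESeq2 called 0 of 8 (0.16% of all genes called higher).

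The WT groups on which these contrasts rest were set against each other as well. The estimate for female WT was above that for male WT for all 8 tested members, by 0.32 (SE 0.46) for Hoxd11 to 4.47 (SE 0.83, edgeR adjusted p = 0.102, DESeq2 adjusted p = 0.00744) for Hoxb13. Hoxd13 was 2.63 higher (SE 1.12), Hoxd12 2.53 higher (SE 0.93) and Hoxc13 1.73 higher (SE 1.06) in female WT on the log2 scale. With edgeR 0 of 8 passed an adjusted p of 0.05 (0.00552% of all genes did, 1 gene), 4 of 8 were higher at an unadjusted p under 0.05 (11.6% of all genes), and DESeq2 called 1 of 8, Hoxb13, higher (4.32% of all genes). This contrast shares its male WT libraries with the male genotype contrast and its female WT libraries with the female one.

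**Figure D4:**
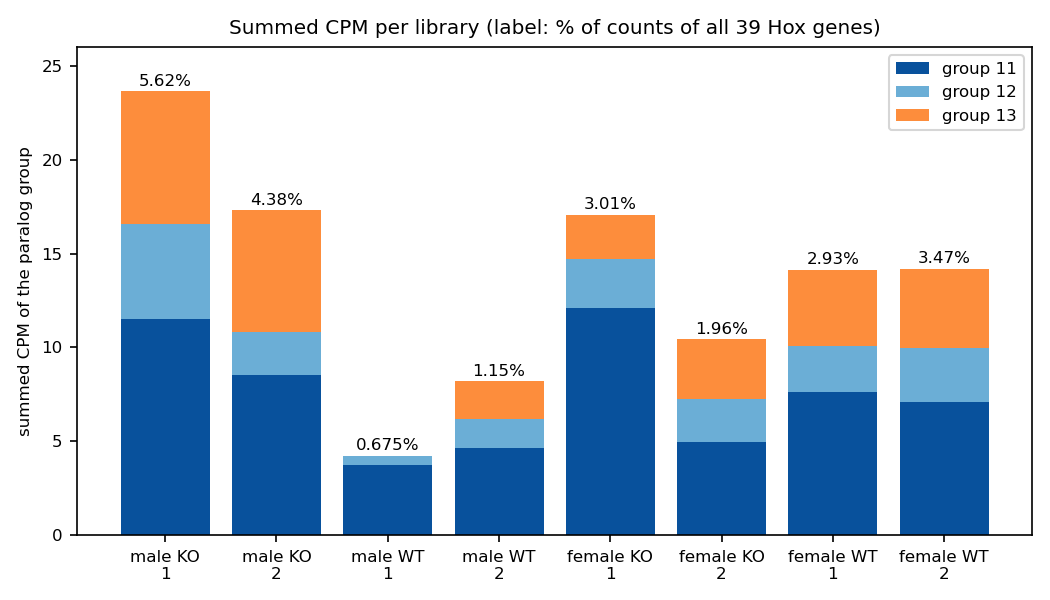
Summed CPM of the group 11, 12 and 13 genes in each library, with the members' share of all Hox counts printed above each bar. Male WT replicate 1 has the lowest sum, 4.24 CPM, and almost no group 13; male KO replicate 1 has the highest, 23.6 CPM.

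Set beside the other Hox genes, the members had the highest male log2 fold changes. The median log2 fold change in males was -0.95 over the 15 genes of groups 1 to 5 (0 of 15 positive), -1.08 over the 8 genes of groups 6 to 8, 0.10 over the 7 genes of groups 9 and 10, and 2.12 over the 8 tested members, against -0.06 over all genes. From group 1 to group 8 the group medians lay between -1.60 and -0.71 with no order. They then were -0.01 for group 9, 0.43 for group 10, 1.37 for group 11, 2.15 for group 12 and 2.53 for group 13. Groups 11 and 13 had 3 tested genes each and group 12 had 2. The group 13 median was that of Hoxc13. Without male WT replicate 1, Hoxc13 was at 1.55, Hoxd13 at 1.44 and Hoxb13 at 5.47. In that fit Hoxc12 was at 1.19 and Hoxd12 at 3.08, so the rise from group 12 to group 13 rests on that library. DESeq2 called 5 of the 15 genes of groups 1 to 5 lower in male KO and 4 of the 8 of groups 6 to 8, where it called 0.812% of all genes lower. Hoxb9, the nearest Hoxb gene to Hoxb13, had 51.5 and 55.0 CPM in male KO and 97.4 and 118.0 CPM in male WT, a log2 fold change of -1.01 (SE 0.24, edgeR adjusted p = 0.235, DESeq2 adjusted p = 0.0308).

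The female values had another shape. Medians were -0.33 for groups 1 to 5, 0.29 for groups 6 to 8, 0.66 for groups 9 and 10 and -0.27 for the members, against 0.03 over all genes. Group 10 was at 0.66, group 11 at 0.20, group 12 at -0.79 and group 13 at -1.68. Groups 11 and 13 had 3 tested genes each and group 12 had 2. The group 13 value was that of Hoxd13, which was -0.01 without female WT replicate 1. Group 12 lay midway between Hoxc12 (-0.04) and Hoxd12 (-1.54). Hoxd12 had only 7 and 2 counts in female KO and 13 and 5 in female WT. Hoxc13, with more counts, was at -0.20. Hoxd10 had 37.2 and 24.6 CPM in female KO and 13.5 and 13.8 CPM in female WT, a log2 fold change of 1.18 (SE 0.30, edgeR adjusted p = 0.532), while Hoxd12 and Hoxd13 of the same cluster had negative ones. How far toward the tail each spine was dissected is not stated, and its part in these differences was not tested.

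**Figure D5:**
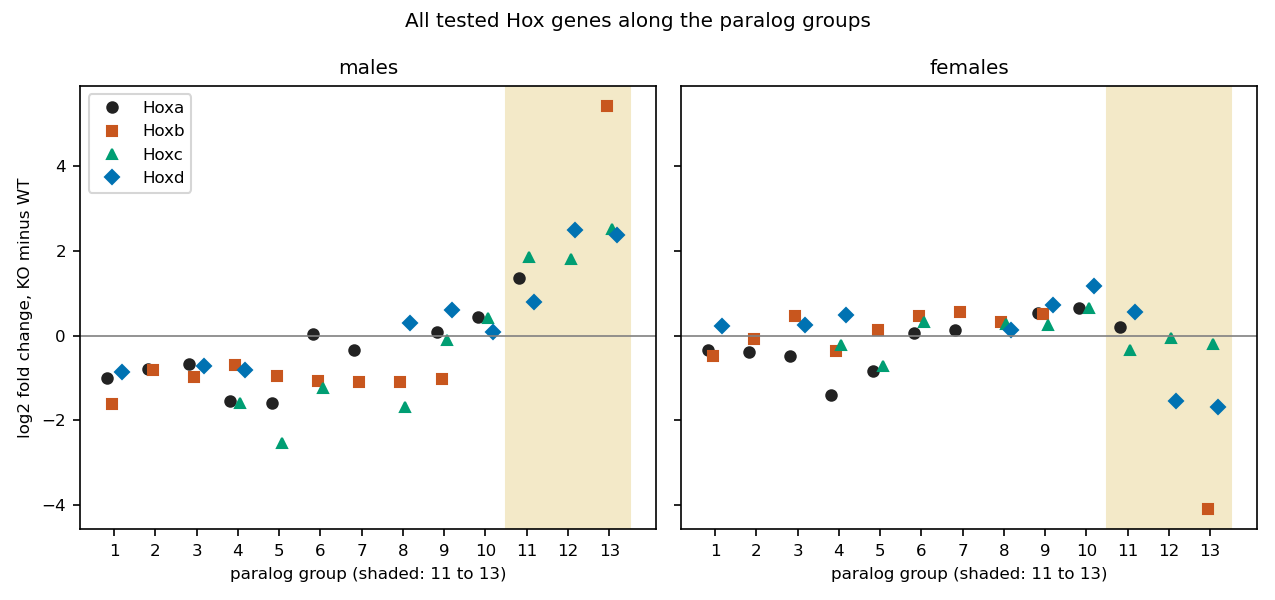
Log2 fold change, KO minus WT, of every tested Hox gene by paralog group in males and in females, with groups 11 to 13 shaded. Male values run from below 0 in groups 1 to 5 to 5.42 for Hoxb13, and female values in the shaded groups lie between -4.09 and 0.55.

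Transcripts read from the same loci were examined next. Hoxa11os, an RNA antisense to Hoxa11, shares 800 of the 2287 exon bases of Hoxa11 (35%). It had 2.03 and 1.88 CPM in male KO and 0.345 and 0.900 CPM in male WT, a log2 fold change of 1.64 (SE 0.53, edgeR adjusted p = 0.268), and 2.11 and 0.997 CPM in female KO and 1.84 and 1.83 CPM in female WT. Hoxa11 had 1.48 to 3.43 times the counts of Hoxa11os in a library. The kit keeps strand, but whether the counting used it is not stated, so reads of the pair may not be told apart. Hotair, an antisense RNA of the Hoxc cluster, had 1.80 and 3.33 CPM in male KO and 0.789 and 1.34 CPM in male WT, a log2 fold change of 1.26 (SE 0.54, edgeR adjusted p = 0.329).

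Genes that act with or on Hox proteins were taken as 5 lists, and 0 of their genes passed an adjusted p of 0.05 in either sex with edgeR or DESeq2. The median male log2 fold changes were -0.44 for cofactors, -0.25 for caudal axis regulators, -0.06 for Polycomb and trithorax genes, -0.55 for cluster neighbours and -0.02 for reported targets, against -0.06 over all genes. At an unadjusted p under 0.05, 7.29% of all genes were lower and 7.53% higher in male KO. Of 9 cofactors of the Pbx, Meis and Pknox families, 1 was lower in male KO at an unadjusted p under 0.05, with Meis2 at 35.3 and 31.4 CPM in male KO and 50.8 and 59.8 CPM in male WT (log2 fold change -0.73, SE 0.22). Of 11 tested regulators of the caudal axis, 2 were higher in male KO at that threshold, Msgn1 (1.86, SE 0.70), a presomitic mesoderm factor, and Acvr2b (0.91, SE 0.38), a receptor for Gdf11. Msgn1 was near the floor, with 0.288 and 0.334 CPM in male KO and 0.0986 and 0.0692 CPM in male WT, the last from 3 counts. Cdx4 was at 0 in every library. Among 17 Polycomb and trithorax genes, which set the repressed and active states of Hox chromatin, 1 was lower in male KO, the Polycomb gene Bmi1 (-0.88, SE 0.33). Of 7 genes flanking the clusters, 1 was higher in male KO, Calcoco1 (0.82, SE 0.34), next to the Hoxc cluster. Of 7 tested reported targets of the members, 1 was lower in male KO, the integrin gene Itga8 (-0.65, SE 0.23), and it was higher in female KO (0.94, SE 0.23). For the difference between the sexes DESeq2 called Itga8 (1.58, SE 0.33, edgeR adjusted p = 0.243, DESeq2 adjusted p = 0.0179), among 362 genes called. Between the WT sexes DESeq2 called 1 reported target higher and 3 lower, among 2099 genes called. It also called 1 caudal axis regulator and 1 cluster neighbour lower, and 1 Polycomb or trithorax gene each way.

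Likeness over the 8 libraries was measured as Pearson's r of log2 CPM, among 15157 genes with a mean of at least 1 CPM. The libraries share their scaling and depth, so r is a description. To the mean of the tested members the nearest were Hoxa11os (0.954), Crybg1 (0.952), Ppp4r1l-ps (0.941), Atf7 (0.940) and Rcan1 (0.934). To Hoxb13 the nearest were Fam43a (0.982), Plaur (0.964), Vav1 (0.961), Ltb4r1 (0.955) and Ugt1a7c (0.954). Fam43a had 33.9 and 30.9 CPM in male KO, 25.2 and 24.4 in male WT, 24.8 and 23.4 in female KO and 30.4 and 32.6 in female WT. Against the members' mean, the Hox genes of groups 1 to 10 at that level ran from 0.384 for Hoxa10 to -0.842 for Hoxb7. Between members r ran from 0.282 (Hoxd11 and Hoxc13) to 0.917 (Hoxc12 and Hoxc13).

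Markers of other tissues that a dissected spine could carry were measured in the same libraries. The 8 lung markers summed to 3.38 and 4.09 CPM in male KO and 31.2 and 6.16 CPM in male WT, and to 2.59 and 5.17 CPM in female KO and 1.93 and 2.63 CPM in female WT, the highest sum being in male WT replicate 1, where 3 members had no count. At an unadjusted p under 0.05, 6 of the 8 were lower in male KO, where 7.29% of all genes were. Sftpc, the surfactant protein C gene, had 0.392 and 0.836 CPM in male KO and 23.6 and 1.66 CPM in male WT. The 13 skin and hair markers summed to 14.9 and 16.1 CPM in male KO and 33.8 and 25.6 CPM in male WT, and to 13.7 and 15.0 CPM in female KO and 20.0 and 13.5 CPM in female WT. The hindgut and bladder markers summed to 6.19 and 7.04 CPM in male KO and 10.5 and 5.88 CPM in male WT, and to 4.89 and 4.01 CPM in female KO and 5.47 and 7.62 CPM in female WT. The kidney markers summed to between 13.6 and 20.1 CPM in all libraries, with Umod at 0 in each. Neuron markers summed to 933.0 and 772.0 CPM in male KO and 1110.0 and 1480.0 CPM in male WT, and cartilage and bone markers to 27000.0 and 12500.0 CPM in male KO and 9700.0 and 5950.0 CPM in male WT. In females neuron markers summed to 1040.0 and 1120.0 CPM in KO and 897.0 and 678.0 CPM in WT, and cartilage and bone markers to 11400.0 and 18600.0 CPM in KO and 11800.0 and 6040.0 CPM in WT. Their part in the members' differences was not tested.

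The 6 limb markers summed to 18.7 to 26.3 CPM in KO libraries and 21.6 to 34.8 CPM in WT libraries. Pitx1, a hindlimb and pelvic transcription factor gene, had the lowest unadjusted p of the limb markers in females. It had 0.232 and 0.242 CPM in female KO and 2.52 and 0.914 CPM in female WT, a log2 fold change of -2.85 (SE 0.69, edgeR adjusted p = 0.532, DESeq2 adjusted p = 0.0199). In males it had 16 and 17 counts in KO and 6 and 1 counts in WT, a log2 fold change of 1.60 (SE 0.84, edgeR adjusted p = 0.389). In males 4 of the 6 limb markers had negative log2 fold changes, and those of lowest unadjusted p were Hand2 (-1.51, SE 0.61) and the forelimb gene Tbx5 (-2.43, SE 1.01). Tbx5 was below the level of 3 counts in male KO replicate 2.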

How the data were processed

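Frozen whole spines were homogenised and mRNA libraries were made with a stranded kit, per the labels' protocols. The authors deposited 1 table of read counts for each gene, as whole numbers that were not normalized. FastQC, MultiQC, HISAT2, featureCounts and mm10 are named in the submitters' processing notes; neither the annotation nor the strand setting is stated there. Symbols came from a RefSeq table of GRCm38.p6 (25275 genes of 27179 matched), and exon lengths from GENCODE release M21. Genes were filtered by edgeR's filterByExpr (minimum count 10), scaled by TMM and tested with edgeR 4.0.16 (glmQLFit, glmQLFTest) in R 4.3.3, with Benjamini-Hochberg adjustment over 18104 genes. All 8 libraries entered a fit of 4 group means (4 residual degrees of freedom), or of sex and genotype (5). DESeq2 1.42.0 was an alternative. CPM used TMM library sizes. The biological coefficient of variation was 27.8%. Intervals of count ratios cover counting error only. The fit was tested on simulated data. The members and lists were chosen with earlier results of these data known. All 9 members are named, with the 3 genes of a list with the lowest p in either sex where it is described, and the 5 genes most like the members; of those, only examples are printed. Alternatives were RLE scaling, no count filter, DESeq2, a replicate block, fits of 1 sex, omission of mitochondrial genes, and omission of each library.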

Additional observations from a re-analysis of the deposited data

Results flagged for a closer look

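Hoxc12 in male KO replicate 1, at 4.84 CPM, stood apart from the other KO libraries (2.06, 2.52 and 2.26 CPM); chance sets about 1 in 20 such groups apart. Hoxb13 went opposite ways in the sexes, with all KO libraries above all WT libraries in males and below them in females, a difference of -9.51 on the log2 scale (edgeR adjusted p = 0.243). Hoxd12 did the same, with a difference of -4.03 (edgeR adjusted p = 0.247). Hoxa13 was also higher in both male KO libraries and lower in both female KO libraries, a difference of -0.188 CPM between the female and male effects, which was not tested.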

How the results depend on the processing

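Of 325 values of the 8 tested genes under the alternatives, 304 kept their direction and side of the threshold, 4 newly passed it and 17 changed sign. In males 1 member and 39 genes were called with no count filter, and 2 members and 481 genes by DESeq2. In females DESeq2 called 1 member and 144 genes, and leaving out libraries gave 0 to 33 genes, the most without female WT replicate 2. Over both sexes DESeq2 called 141 genes. For the difference between the sexes, no filter gave 1 member and 1 gene, DESeq2 1 member and 362 genes, and leaving out libraries 0 to 9 genes. Between the WT sexes, no filter gave 1 member and 629 genes, DESeq2 1 member and 2099 genes, and leaving out libraries 0 to 1 members and 1 to 1735 genes; the most came without male KO replicate 1 and 1671 came without male KO replicate 2. Equal replicate numbers do not mark shared animals in the labels. Same-numbered deviations of KO and WT correlated by -0.144 in females and 0.146 in males. Over all pairs of groups the correlations ran from -0.531 (female KO and male KO) to 0.178 (female KO and male WT). The replicate block gave 2 genes between the WT sexes and changed the side of no member value. Every change of sign came from leaving out 1 library. In females the ranges were -0.50 to 0.67 for Hoxa11, -1.17 to 0.19 for Hoxc11, -0.31 to 1.09 for Hoxd11, -0.21 to 0.12 for Hoxc12 and -0.51 to 0.045 for Hoxc13. Over both sexes they were -1.40 to 2.32 for Hoxb13, -0.34 to 1.04 for Hoxd12 and -0.58 to 1.48 for Hoxd13. The cause was not tested. Hoxa13, Hoxd12 and Hoxd13 had counts of 0 to 33 a library, which limits their precision.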
